A study of Mus musculus with 4 samples.

Results

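The cathepsins and cystatins described here are 10 mouse genes, taken from a list of symbols: the cathepsins Ctss, Ctsz, Ctsc, Ctsh, Ctsb, Ctsl, Ctsd and Ctsa, and the cystatins Cst7 and Cst3. They are 10 of 18193 genes that the array annotation names by a single symbol. All probe sets with 1 of these symbols were taken, 21 in all, a probe set being several short oligonucleotides on the array whose signals are combined. The list was drawn up in part because Cst7 and Ctss were already known to be higher on the arrays numbered 1, so that the comparison of the numbers is given below as a description, without a test.

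Transcript levels were read on 4 Affymetrix mouse arrays that carried target made from total RNA of brain, hindbrain and spinal cord. The cDNA arrays 1 and 0 were hybridised with cDNA amplified with a Nugen kit, and the aRNA arrays 1 and 0 with antisense RNA from T7-based amplification. The labels name no strain, genotype, sex, age or treatment, and do not say what the numbers 1 and 0 stand for or whether RNA of separate animals was used, so a p-value measures only the spread between these arrays, which may be technical. All values below are log2(intensity + 16) or differences of such values, unless an intensity is named. Each difference sets a probe set's level against its own level on another array. Words on brightness and summed intensities also run over different probe sets, and are descriptive.

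Cathepsins are the proteases of the lysosome, the acidic compartment in which cells break down proteins taken up from outside or delivered from within. Most are cysteine proteases of the papain family, made as inactive proenzymes and activated by removal of the propeptide; Ctsd is an aspartic and Ctsa a serine protease. Cystatins are small proteins that occupy the active site of papain-type cysteine proteases. In the central nervous system the microglia, its resident macrophages, are rich in lysosomal proteases, while neurons and the other glia also express several of them.

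Promoter windows from RefSeq (build GRCm38.p6), reaching from 250 bases before to 50 bases after the annotated start, were found for 8 of the 10 genes (9 windows; Ctsa has 2). They are shown because 3 short motifs, chosen with these sequences in view and searched on both strands, fall in some members and not in others. The motif AGGAAGT, the core bound by ETS factors such as the myeloid factor PU.1, lay in the windows of Cst7, Ctss and Ctsc and in 9.35% of all 32851 windows of the table. A pair of GAAA copies with any 2 bases between them, a repeat bound by interferon regulatory factors, lay in that of Ctss and in 3.44% of all windows. The motif CACGTG, the centre of the element bound by the lysosomal regulator TFEB, lay in those of Ctsd, Ctsa and Ctsl and in 7.15% of all windows. None of the 3 was found in the windows of Ctsz and Cst3. In the sequences, written 5′ to 3′ on the strand of the gene, capitals mark these motifs; no 2 of them overlap, and in Ctss the ETS core is read from the opposite strand.
Cst7 (chr2:150570165-150570464, + strand): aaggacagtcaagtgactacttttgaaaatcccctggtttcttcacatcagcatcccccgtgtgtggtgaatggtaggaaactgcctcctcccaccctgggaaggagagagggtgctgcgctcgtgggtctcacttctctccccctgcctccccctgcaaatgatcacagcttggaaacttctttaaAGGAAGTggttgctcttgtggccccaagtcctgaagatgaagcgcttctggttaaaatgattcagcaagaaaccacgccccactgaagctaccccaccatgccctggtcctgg
Ctss (chr3:95526536-95526835, + strand): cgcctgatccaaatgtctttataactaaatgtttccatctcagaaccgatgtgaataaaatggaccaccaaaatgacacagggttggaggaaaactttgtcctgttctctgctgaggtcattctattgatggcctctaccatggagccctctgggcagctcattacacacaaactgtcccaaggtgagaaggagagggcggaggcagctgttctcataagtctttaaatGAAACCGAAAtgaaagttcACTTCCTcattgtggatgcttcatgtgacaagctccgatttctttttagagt
Ctsd (chr7:142387778-142388077, - strand): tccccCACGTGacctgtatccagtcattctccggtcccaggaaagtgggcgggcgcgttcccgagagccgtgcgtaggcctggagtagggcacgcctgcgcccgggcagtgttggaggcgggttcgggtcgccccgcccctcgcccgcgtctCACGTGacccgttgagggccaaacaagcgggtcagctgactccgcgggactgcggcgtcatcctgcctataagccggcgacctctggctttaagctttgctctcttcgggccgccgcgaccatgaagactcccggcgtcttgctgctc
Ctsa, second window (chr2:164833523-164833822, + strand): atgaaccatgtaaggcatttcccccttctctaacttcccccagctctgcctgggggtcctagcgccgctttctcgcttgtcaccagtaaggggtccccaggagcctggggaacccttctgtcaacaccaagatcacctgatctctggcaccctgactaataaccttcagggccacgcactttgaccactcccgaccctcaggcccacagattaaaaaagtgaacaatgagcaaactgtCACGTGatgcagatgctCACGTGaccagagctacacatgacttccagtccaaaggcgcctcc
A match of letters is a description of these windows and not a binding site.

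All 4 arrays had the same trimmed mean, 2500.02, so equal mean brightness was set by the authors' scaling. Background was taken as the 95th percentile of 27 control probe sets for Bacillus transcripts on each array, an intensity of 249 on cDNA array 1, 212 on cDNA array 0, 126 on aRNA array 1 and 123 on aRNA array 0. The neuronal gene Snap25 and the myelin gene Mbp were bright on every array, from 16.71 to 17.01 and from 16.40 to 16.65. Of 9 hindbrain and spinal cord genes measured, 4 were bright enough to be tested. The glycine receptor gene Glra1 lay between 13.17 and 15.11 and Hoxa5 between 9.15 and 10.14, the glycine transporter gene Slc6a5 read 7.51 on aRNA array 1 against 11.76 on aRNA array 0, and Hoxc8 was under background on every array. One array stood apart: Xist, made in female cells, read 12.51 on cDNA array 1, 11.94 on cDNA array 0 and 15.44 on aRNA array 1, against 8.55 on aRNA array 0 at probe set 1436936_s_at, while the Y-linked Eif2s3y read 13.12 on aRNA array 0 and at most 7.92 on the others. The difference between the numbers on aRNA rests on that array, while the one on cDNA does not use it. For the cathepsins and cystatins, each call between the preparations is also given without it where it changes. For all other genes, the calls between the preparations are given only with that array included. The part of this array in the results was not tested.

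Of the 21 probe sets, 17 had a mean over the 4 arrays at or above the median of all probe sets and entered the tests, with at least 1 for each of the 10 genes. The other 4 were 1 for Ctsa, 1 for Ctsb and 2 for Ctsc. The brightest of these left out, Ctsc 1446834_at, had a mean of 8.18, and the dimmest kept, Ctsl 1457724_at, one of 8.87, on either side of a limit of 8.38.

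**Figure D1:**
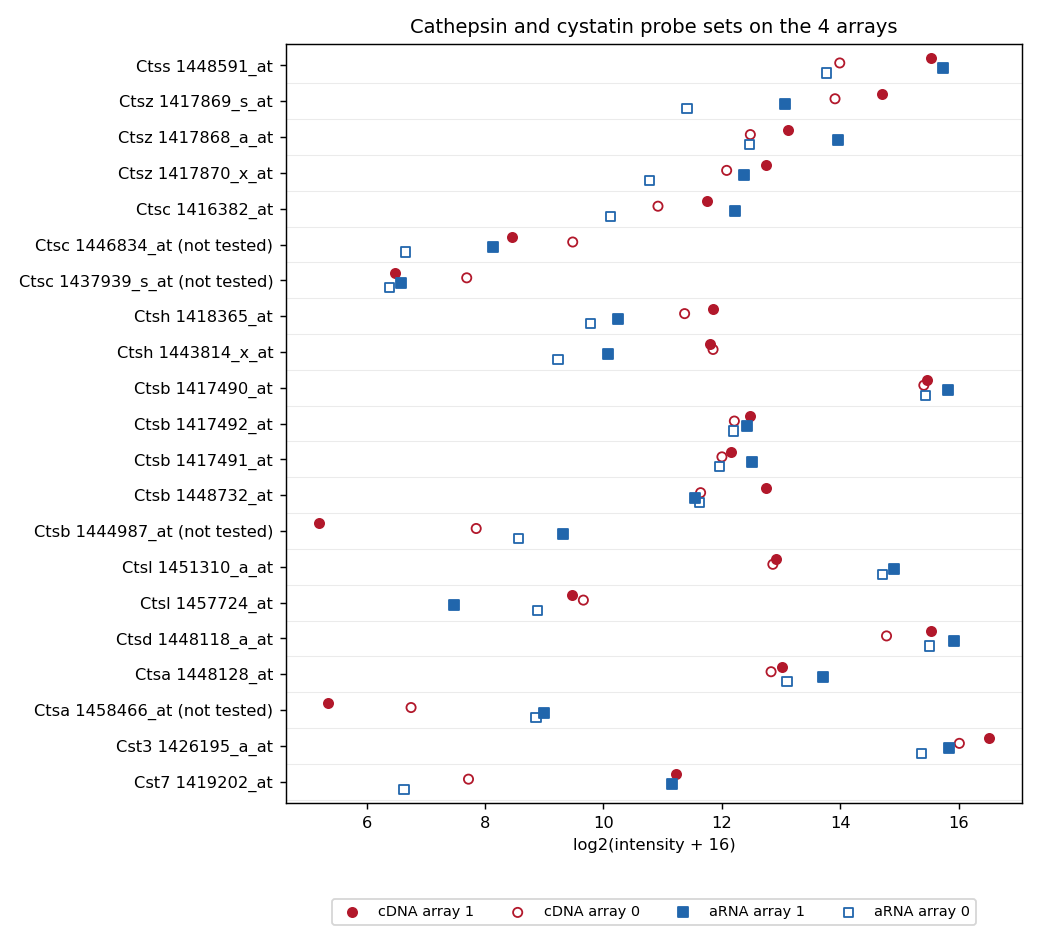
Level of each of the 21 probe sets, as log2(intensity + 16) on the horizontal axis, with 1 point for each of the 4 arrays (circles cDNA, squares aRNA, filled for number 1, open for number 0). The filled points of Cst7 and Ctss lie to the right of the open ones in both preparations, while those of Ctsl 1451310_a_at part by preparation, near 12.9 on cDNA and 14.8 on aRNA.

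Cst7 and Ctss were the members at least 2-fold higher on number 1 than on number 0 in both preparations. At the probe sets tested, Ctsz and Ctsc were higher on number 1 by less than 2-fold on cDNA and by more than 2-fold on aRNA, and Ctsh, Ctsd, Ctsa and Cst3 differed by less than 1 on the log2 scale. Since the list was chosen partly on this contrast, and each preparation has 1 array per number, these are values without a test. In RNA of whole tissue, fewer cells of a type and less RNA per cell cannot be told apart.

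Cst7 encodes cystatin F, a cystatin of myeloid and cytotoxic lymphoid cells that is carried into the lysosome and inhibits cathepsins there. It read an intensity of 2390 on cDNA array 1 and 195 on cDNA array 0. On the aRNA arrays it read 2254 on array 1 and 82.7 on array 0. Both number 0 values lay under the background level of their arrays, so the gene was above background on the number 1 arrays and not above it on the others. Against the background level, Cst7 was at least 10.6-fold higher on number 1 between the cDNA arrays and at least 16.3-fold higher between the aRNA arrays. The 2 number 1 arrays were alike (11.23 on cDNA and 11.15 on aRNA on the log2 scale). Over the alternative settings of pseudocount, scaling, filter and background, the difference lay between 3.25 and 3.63 on cDNA and between 3.98 and 4.75 on aRNA on the log2 scale, each with a number 0 value not above background.

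Ctss encodes cathepsin S, an endopeptidase of antigen-presenting cells that stays active at neutral pH and trims the invariant chain of MHC class II. Its intensity was 47211 on cDNA array 1 and 16285 on cDNA array 0, and 54226 on aRNA array 1 and 13964 on aRNA array 0. Every array was far above background, and the 2 arrays of a number lay close to each other across the preparations. The fold of number 1 over number 0 was 2.9 on cDNA and 3.88 on aRNA. On the log2 scale the differences were 1.53 and 1.96, and they moved only between 1.48 and 1.54 and between 1.91 and 1.96 over the same settings.

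Ctsz encodes cathepsin X, a carboxypeptidase that removes single residues from protein ends. Its 3 probe sets gave differences between the numbers of 0.80, 0.63 and 0.67 on cDNA and of 1.65, 1.50 and 1.59 on aRNA (1417869_s_at, 1417868_a_at and 1417870_x_at). The 3 probe sets thus gave nearly the same difference within a preparation, and each gave a larger one on aRNA. The suffixes of 1417869_s_at and 1417870_x_at mark probes that may bind related transcripts. Ctsc encodes dipeptidyl peptidase 1, which activates the serine proteases of granules in neutrophils and lymphocytes. At 1416382_at it read 11.75 on cDNA array 1 and 10.92 on cDNA array 0, and 12.22 on aRNA array 1 and 10.12 on aRNA array 0. Its difference was 0.83 on cDNA and 2.10 on aRNA.

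Ctsh, an aminopeptidase, differed by 0.48 on cDNA and 0.46 on aRNA at 1418365_at, and by −0.05 and 0.85 at 1443814_x_at. Ctsd, the aspartic protease cathepsin D, read 15.53 on cDNA array 1 and 14.78 on cDNA array 0, and 15.92 on aRNA array 1 and 15.50 on aRNA array 0. Its number 1 array was the higher in each preparation, by 0.75 and 0.42. Ctsa, a carboxypeptidase that protects lysosomal beta-galactosidase and neuraminidase, differed by 0.18 on cDNA and 0.61 on aRNA. Cst3 encodes cystatin C, the secreted inhibitor abundant in cerebrospinal fluid. It differed by 0.50 on cDNA and 0.46 on aRNA, so that the 2 cystatins of the list had unlike sizes of difference in both preparations.

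Ctsb encodes cathepsin B, an endopeptidase that also acts as a carboxypeptidase. At its brightest probe set, 1417490_at, it read 15.47 on cDNA array 1 and 15.41 on cDNA array 0, and 15.82 on aRNA array 1 and 15.44 on aRNA array 0. The numbers differed there by 0.06 on cDNA and 0.38 on aRNA. Probe set 1448732_at went apart from the other Ctsb probe sets that entered the tests, with 12.75 on cDNA array 1 against 11.64 on cDNA array 0, and 11.55 on aRNA array 1 against 11.62 on aRNA array 0. For Ctsl, the endopeptidase cathepsin L, the numbers differed by 0.06 and 0.20 at 1451310_a_at. Its dimmer probe set, 1457724_at, was lower on number 1, by −0.20 on cDNA and −1.41 on aRNA. The genes of Ctsb and Ctsl therefore have probe sets that disagree on the numbers.

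**Figure D2:**
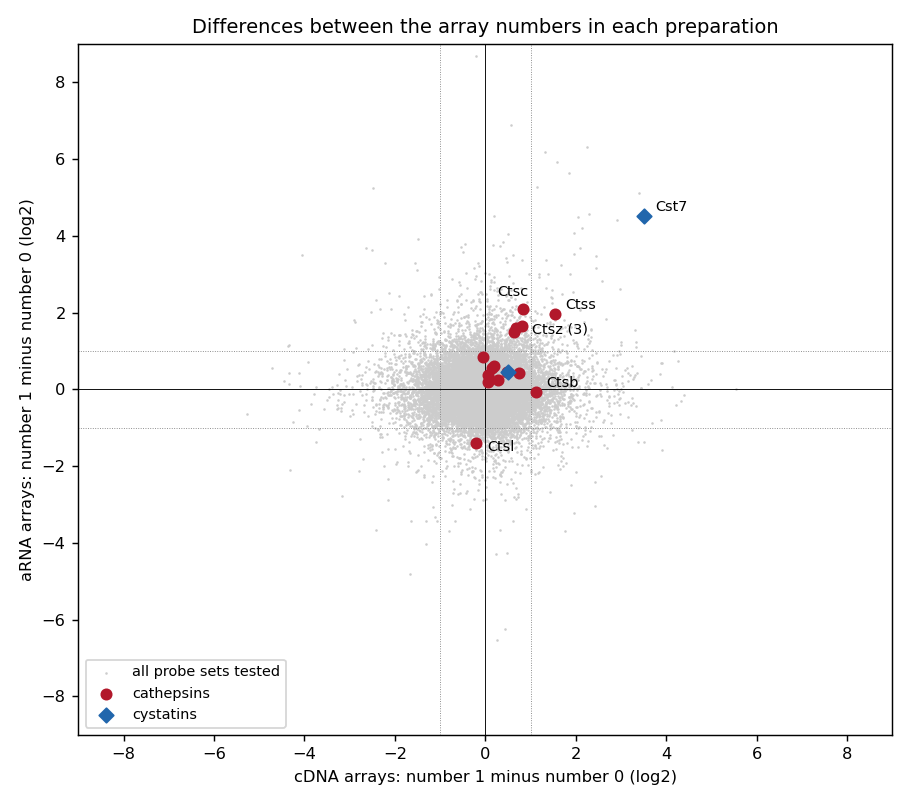
Difference of the array numbered 1 minus the array numbered 0, on the cDNA arrays (horizontal, log2) and on the aRNA arrays (vertical, log2), for all 22519 probe sets tested (grey), the 15 cathepsin probe sets (red circles) and the 2 cystatin probe sets (blue diamonds); dotted lines mark 2-fold. Cst7 lies at 3.51 and 4.52, Ctss at 1.53 and 1.96, and the 3 Ctsz probe sets and Ctsc above the 2-fold line on aRNA only.

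Counted over the 17 probe sets, 3 were at least 2-fold higher on number 1 on the cDNA arrays (Cst7, Ctss and Ctsb 1448732_at), where 5.97% of all 22519 probe sets tested were. On the aRNA arrays 6 were (Cst7, Ctsc, Ctss and the 3 of Ctsz), against 4.66% of all. In both preparations 2 were, against 0.622% of all. None on cDNA and 1 on aRNA, Ctsl 1457724_at, were at least 2-fold lower on number 1, against 7.48% and 3.93% of all. In 14 of the 17 the difference was above 0 in both preparations, as it was in 24.9% of all probe sets. The median difference of the 17 was 0.50 on cDNA and 0.55 on aRNA, beside −0.02 and 0.00 over all probe sets tested. Nothing is read from these shares, since the contrast was used in choosing the genes. Over all probe sets, limma's additive model called 0.0533% higher and 0.00888% lower between the numbers; its values are not read for the cathepsins and cystatins.

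By the Euclidean distance between the 4 array values, each probe set centred on its own mean, the 5 genes of 11945 most like Cst7 were Sprr1a (distance 1.01), Tent5c (1.16), Atf3 (1.17), Cd68 (1.18) and Tyrobp (1.33). Those most like Ctss were Siglech (0.35), Plvap (0.48), Rnase4 (0.49), Tlr2 (0.49) and Ctsc (0.53), the last a member of the list. The likeness rests on 4 arrays and is descriptive.

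Markers of microglia and macrophages, and of some other cells, also differed between the numbers. Of 14 such genes tested, 6 were at least 2-fold higher on number 1 in both preparations, against 0.67% of the 11945 genes when each is given by 1 probe set. In both preparations 11 were above 0, beside 24.9% of all 22519 probe sets tested, a share that was not taken per gene. On the number 0 arrays alone, Siglech and Gpr34, which are among the 6, and Ptprc had means under 8.38, the limit for testing. These genes entered the tests through the number 1 arrays, where they were higher. The marker list was also chosen with earlier results of these data known, so nothing is read from these shares. With limma's additive model of preparation and number, 3 of the 14 passed an adjusted p of 0.05 and rose (0.0837% of all genes did): Ly86 by 2.80 (SE 0.32, adjusted p = 0.00902), Tyrobp by 2.74 (SE 0.37, adjusted p = 0.022) and Mpeg1 by 3.27 (SE 0.51, adjusted p = 0.0476). These calls rest on 1 residual degree of freedom, and without limma's intensity trend no probe set of the array was called between the numbers; 9 of the 14 had an unadjusted p under 0.05. The summed intensity of the 16 measured marker genes was 55556 and 88105 on the number 1 arrays, cDNA and aRNA, and 29633 and 13044 on the number 0 arrays; none was under background on every array. Not all microglial markers followed: Tmem119 differed by −0.75 on cDNA and 0.85 on aRNA, P2ry12 by 0.96 and −0.21, and Cx3cr1 by −0.68 and 1.74. Markers of neutrophils were high on cDNA alone, with a summed intensity over 8 genes of 30682 on cDNA array 1 and 8554 on cDNA array 0, and of 799 on aRNA array 1 and 1004 on aRNA array 0. S100a8 and S100a9 were under background on both aRNA arrays. None of the mast cell and none of the B and T cell markers was bright enough to be tested, and their sums lay between 506 and 2855.

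Of 10 astrocyte genes none was called between the numbers by limma, 5 had an unadjusted p under 0.05, and the medians were 0.30 on cDNA and 0.56 on aRNA. Gfap, the filament gene of reactive astrocytes, was the 1 astrocyte gene at least 2-fold higher on number 1 in both preparations (0.67% of all genes were), at 1.14 on cDNA and 5.27 on aRNA (limma adjusted p = 0.265), and Aqp4 differed by 0.89 and 1.16. Of 4 choroid plexus genes 3 were at least 2-fold higher on cDNA array 1 than on cDNA array 0 (4.6% of all genes), with medians of 1.86 on cDNA and −0.30 on aRNA. Of 10 genes of meninges and fibroblasts 1, Ogn, was at least 2-fold lower on number 1 in both preparations (0.477% of all genes), under background on aRNA array 1, and the medians were −0.94 and −0.30. Oligodendrocyte genes had medians of 0.14 and −0.33, and neuronal genes of 0.24 and 0.21. Single genes of these lists were named after their values were seen. The part of all these cells in the differences of the cathepsins and cystatins was not tested.

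Other genes of the lysosome were listed by role, with 1 probe set per gene, and no gene of these lists passed the limma test between the numbers. Of 44 lysosomal hydrolases and their cofactors, none was called (11 at an unadjusted p under 0.05). None was at least 2-fold higher on number 1 on cDNA (4.6% of all genes) and thus in both preparations, 9 were on aRNA (4.5%), and 1 was at least 2-fold lower in both (0.477%). The 9 included Lyz1 (0.40 on cDNA and 3.83 on aRNA), the phospholipase D family gene Pld4 (−0.15 and 2.48) and Grn, the progranulin gene (0.52 and 2.34). The gene lower in both was Galc, the galactosylceramidase that degrades myelin lipid (−1.42 and −2.0), named after its values were seen, as were the 3 just given. Lyz1 and its neighbour Lyz2 are near copies, and their probe sets may share signal. The median of the list was −0.02 on cDNA and 0.26 on aRNA, beside −0.04 and 0.02 over all genes.

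Of 23 lysosomal membrane proteins none was called (4 at an unadjusted p under 0.05), and 3 were at least 2-fold higher on number 1 in both preparations (0.67% of all genes). These 3, named after their values were seen, were Cd68, the macrophage sialomucin (2.09 on cDNA and 3.68 on aRNA, limma adjusted p = 0.0613), Laptm5, of haematopoietic cells (1.39 and 3.01, adjusted p = 0.0588), and Slc11a1, the metal transporter of phagosomes (1.42 and 1.70, adjusted p = 0.682). The remaining gene under 0.05, Lamp5, was lower on number 1 (−0.76 on cDNA and −1.64 on aRNA, limma adjusted p = 0.456). The list's median was −0.16 on cDNA and 0.18 on aRNA. Of 17 subunits of the V-ATPase, the proton pump that acidifies lysosomes, none was called or at least 2-fold higher, none had an unadjusted p under 0.05 in limma, and the medians were 0.05 and 0.16. Of 23 sorting receptors, adaptors and transcription factors of lysosomal genes, likewise none was called, at least 2-fold higher or under an unadjusted 0.05 in limma, with medians of 0.06 and −0.09.

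Among 5 other cathepsins and relatives that were bright enough, 1 was above 0 on number 1 in both preparations, Ctse, an aspartic protease of the endosome. It was at least 2.59-fold higher on cDNA, being under background on cDNA array 0, and 2.12 higher on the log2 scale on aRNA. Ctse was not called (limma adjusted p = 0.541), and 1 of the 5 had an unadjusted p under 0.05. On the number 0 arrays alone, at 7.12 and 8.57, its mean was under 8.38, the limit for testing. Tinagl1 differed by −2.08 on cDNA and −0.03 on aRNA, and Ctsf by −0.66 and −0.22. The medians of the 5 were −0.19 on cDNA and −0.03 on aRNA. Of 7 further cystatins and inhibitors of lysosomal proteases none was called (1 at an unadjusted p under 0.05), and the medians were 0.27 on cDNA and 0.70 on aRNA.

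**Figure D3:**
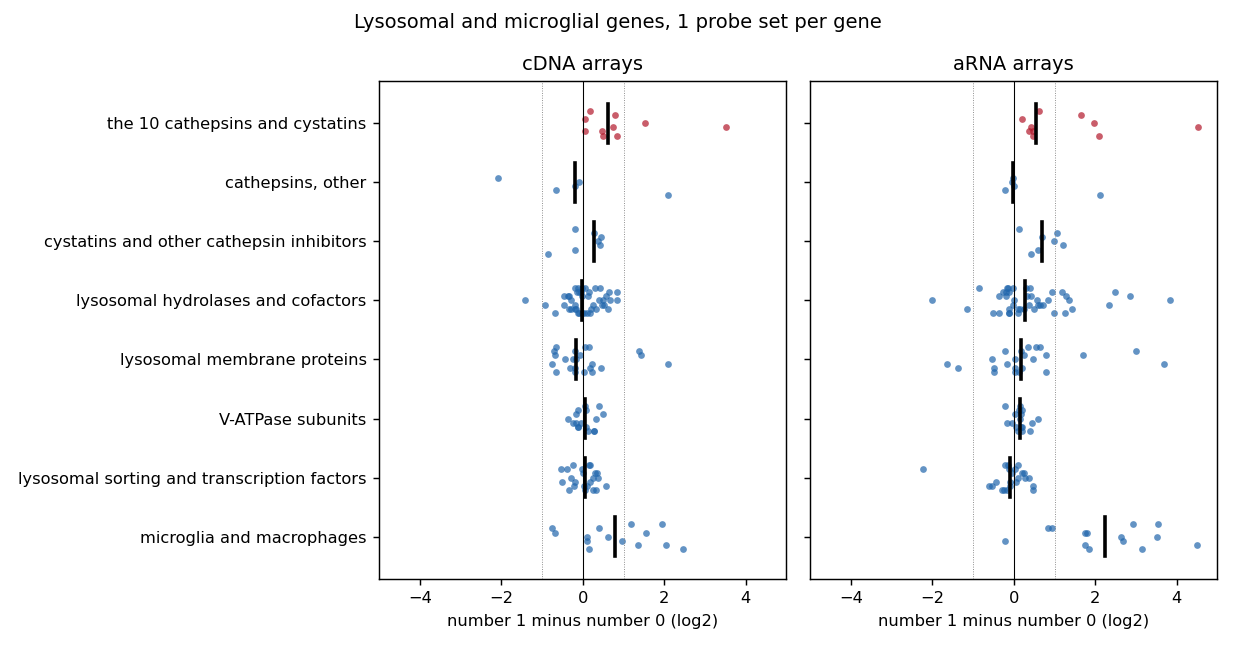
Difference of number 1 minus number 0 (log2) for single genes, 1 probe set each, on the cDNA arrays (left) and the aRNA arrays (right); each row is a list, each point a gene and the black bar the list's median, and dotted lines mark 2-fold. The 10 cathepsins and cystatins (red) have medians of 0.62 and 0.54, the V-ATPase subunits 0.05 and 0.16, and the microglial and macrophage markers 0.78 and 2.24.

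The comparison of cDNA with aRNA was not used in choosing the genes and was tested with limma over all 22519 probe sets, 2 arrays against 2. Ctsh was higher on cDNA at both of its probe sets, Ctsz at 1 of 3, and Cst3 at its only one; Ctsl was lower on cDNA at the brighter of its pair. Ctss, Ctsc, Ctsb, Ctsd, Ctsa and Cst7 were not called at any probe set tested. In all, 4 of the 17 probe sets were called higher on cDNA, where 20.2% of all probe sets were, and 1 was called lower, where 22.9% were; 6 of the 17 had an unadjusted p under 0.05. The 5 calls of 17 stand beside 43.2% of all probe sets called in either direction, a larger share. By size alone, 4 were at least 2-fold higher on cDNA (21.0% of all) and 1 at least 2-fold lower (23.3%), 5 in all (44.3%). The 2 preparations did not overlap in 8 of the 17, against 73.8% of all. The median difference of the 17 was 0.17, beside −0.11 over all probe sets.

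Ctsl at 1451310_a_at read 12.91 and 12.86 on cDNA arrays 1 and 0, against 14.90 and 14.71 on aRNA arrays 1 and 0. The preparations were far apart and the arrays within each close together. The cDNA mean of 12.88 ± 0.04 and the aRNA mean of 14.80 ± 0.14 (SD, n = 2 each) gave a difference of −1.92 (SE 0.22, limma adjusted p = 0.00024), with aRNA 3.78-fold brighter. It was −1.99 between the arrays numbered 1 and −1.85 between those numbered 0. The other Ctsl probe set, 1457724_at, lay on the opposite side, with 9.56 ± 0.14 on cDNA and 8.19 ± 1.0 on aRNA (SD, n = 2 each). That difference of 1.37 did not pass (SE 0.59, limma adjusted p = 0.0892), and it was 2.08 without aRNA array 0 and 0.66 without aRNA array 1.

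Ctsh at 1418365_at read 11.85 and 11.37 on cDNA arrays 1 and 0, against 10.24 and 9.78 on aRNA arrays 1 and 0. Both cDNA values were above both aRNA values. The difference was 1.60 (SE 0.37, limma adjusted p = 0.00772), a 3.03-fold higher level on cDNA, and it was 1.61 between the arrays numbered 1 and 1.59 between those numbered 0. At 1443814_x_at Ctsh read 11.80 and 11.85 on cDNA, against 10.08 and 9.23 on aRNA, a difference of 2.17 (SE 0.39, limma adjusted p = 0.00239). The 2 probe sets of Ctsh thus went the same way, which those of Ctsl did not.

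Ctsz at 1417869_s_at read 14.71 and 13.91 on cDNA arrays 1 and 0, against 13.06 and 11.41 on aRNA arrays 1 and 0. The difference was 2.08 (SE 0.49, limma adjusted p = 0.00901). The groups did not overlap, but the 2 arrays of each preparation were themselves 0.80 and 1.65 apart, and without cDNA array 1 the call was lost (1.68, limma adjusted p = 0.0525; from 6.53e-05 to 0.0525 over the alternatives). The difference was 1.25 without aRNA array 0 and 2.90 without aRNA array 1, both called. The other Ctsz probe sets were not called. Probe set 1417870_x_at gave 0.83 (95% interval from −0.29 to 1.95), or 1.63 and called without aRNA array 1 (limma adjusted p = 0.00962; from 0.00962 to 0.954 over the alternatives). Probe set 1417868_a_at gave −0.41 (95% interval from −1.44 to 0.62), or −1.16 and called without aRNA array 0 (limma adjusted p = 0.0223; from 0.0223 to 0.904 over the alternatives), and 0.34 without aRNA array 1. The 3 probe sets of Ctsz, which gave alike differences between the numbers, therefore spread over more than 2 log2 units between the preparations.

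Cst3 at 1426195_a_at read 16.51 and 16.01 on cDNA arrays 1 and 0, against 15.83 and 15.37 on aRNA arrays 1 and 0. Both cDNA arrays were above both aRNA arrays, by a mean of 0.66 (SE 0.23, limma adjusted p = 0.0453). The call lay close to the threshold and was lost in 5 alternatives, among them the fits without aRNA array 0 (0.43, limma adjusted p = 0.2) and without cDNA array 1 (0.41, limma adjusted p = 0.273), over a range from 0.00324 to 0.273.

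**Figure D4:**
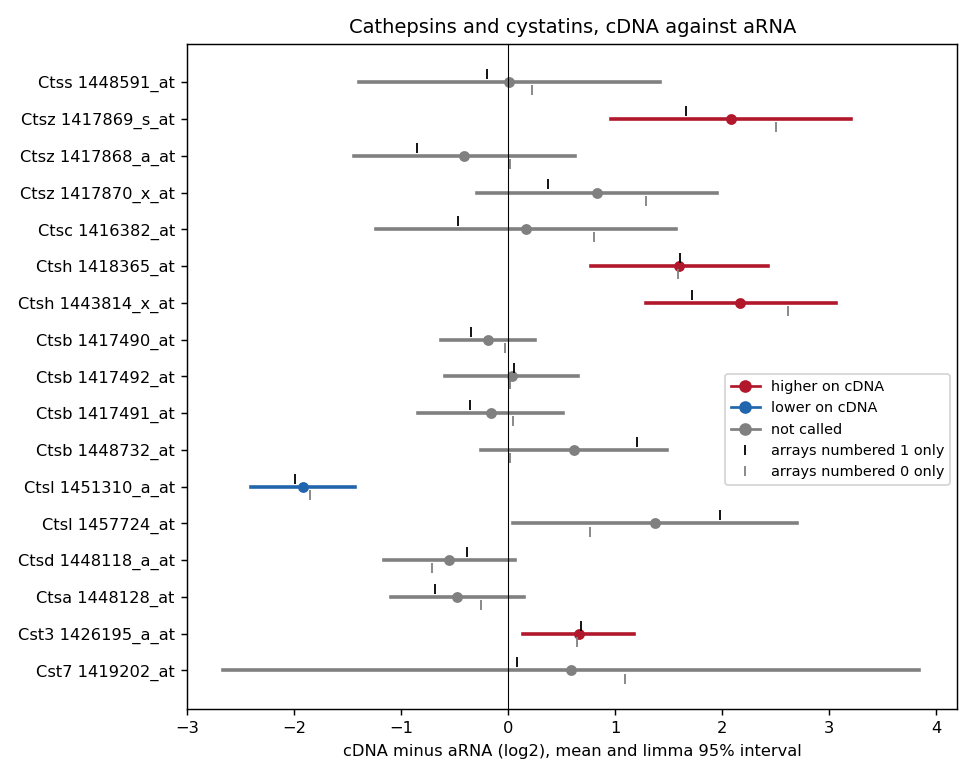
Difference of cDNA minus aRNA (log2, horizontal) for the 17 probe sets tested, as the mean over 2 arrays each with limma's 95% interval (dots and bars; red called higher on cDNA, blue called lower, grey not called); the ticks above and below each bar show the difference between the arrays numbered 1 and between those numbered 0. Ctsl 1451310_a_at stands alone on the left at −1.92, and both Ctsh probe sets lie to the right at 1.60 and 2.17.

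For the members not called, the interval of the difference shows how much the arrays could not resolve. That of Ctss was 0.01 with a 95% interval from −1.40 to 1.42. That of Cst7 was 0.59 with an interval from −2.67 to 3.84. It was 0.08 between the arrays numbered 1 and 1.09 between those numbered 0, where Cst7 was under background in both preparations. At Ctsb the 3 closest probe sets gave −0.19, 0.03 and −0.16, with intervals inside −0.84 to 0.65, and 1448732_at gave 0.61 (interval from −0.26 to 1.48), or 1.16 and called without cDNA array 0 (limma adjusted p = 0.0285; from 0.0285 to 0.915 over the alternatives). Ctsd gave −0.55 (interval from −1.16 to 0.06); it was called lower without cDNA array 1, at −0.92 (limma adjusted p = 0.0317), with each array centred on its median, at −0.70 (limma adjusted p = 0.0478), and with the number as a replicate block, at −0.55 (limma adjusted p = 0.0201), over a range from 0.0201 to 0.641. Ctsa gave −0.48 (interval from −1.10 to 0.15) and Ctsc 0.17 (interval from −1.24 to 1.57), or −0.88 without aRNA array 0 and −0.25 without cDNA array 1.

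The 4 probe sets left out of the tests were dim and held few firm values. Ctsa 1458466_at was under background on both cDNA arrays (5.34 and 6.75), against 9.0 and 8.86 on the aRNA arrays. Ctsb 1444987_at was under it on cDNA array 1 alone (5.20, against 7.85 on cDNA array 0, and 9.32 and 8.57 on the aRNA arrays). Ctsc 1446834_at was under it on aRNA array 0, and Ctsc 1437939_s_at on all 4 arrays.

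Markers of other cells also differed between the preparations. Of 4 choroid plexus genes tested 3 were called higher on cDNA, and among 10 meningeal and fibroblast markers 8 were higher and 1 lower by the same test, where 21.9% of all genes were called higher and 22.9% lower. Kcne2 and Foxc2 were under background on both aRNA arrays (6.14 and 6.34, and 6.9 and 7.12). On the aRNA arrays alone, Kcne2, Kcnj13, Foxc1, Foxc2 and Col1a1 had means under 8.38, the limit for testing. They entered the tests through the cDNA arrays, so a call higher on cDNA was partly set by the filter. Nothing is read from these shares. The summed intensity of the 7 choroid plexus genes measured was 177707 on cDNA array 1 and 104150 on cDNA array 0, against 1748 on aRNA array 1 and 2168 on aRNA array 0. Its leading gene Ttr, the transthyretin gene, was 8.25 higher on cDNA (SE 0.40, limma adjusted p = 7.32e-06). The sums of the meningeal genes were 173265 and 209901 on cDNA, against 78120 and 112315 on aRNA. Those of 6 forebrain genes were 4984 and 8367, against 1220 and 1465, and those of 9 hindbrain and spinal cord genes 13145 and 14667, against 37378 and 32278 (array 1 before array 0 in each pair). Of the 4 hindbrain and spinal cord genes tested, none was called higher on cDNA (21.9% of all genes) and 1 lower (22.9%). That was Glra1 at −1.66, the brightest of the 4, while the median of the 4 was 0.20. Glra1 made up most of each hindbrain and spinal cord sum, so these sums mainly follow 1 gene. For microglia and macrophages none of 14 genes was called higher (21.9% of all) and 1 lower (22.9%), Cx3cr1 at −2.16. Neurons (715276 and 606612 on cDNA, 683306 and 625140 on aRNA), astrocytes (232393 and 191159, against 255683 and 199033) and oligodendrocytes (231392 and 213022, against 227670 and 242195) had sums that overlapped between the preparations. Cst3 is also made in choroid plexus and meninges; the part of these cells in its difference, and in those of Ctsh, Ctsz and Ctsl, was not tested.

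Lysosomal genes outside the list were called in both directions between the preparations. Of the 44 hydrolases and cofactors, 4 were called higher and 10 lower on cDNA, where 21.9% and 22.9% of all genes were (median −0.24, beside −0.06 over all genes). The called genes furthest apart were Lyz2, a lysozyme of macrophages (2.36, SE 0.75), the acid nuclease gene Dnase2a (2.24, SE 0.40), the acetyltransferase gene Hgsnat (−2.16, SE 0.26) and Grn (−2.16, SE 0.61). Of the 23 membrane proteins 2 were called higher and 5 lower (median −0.08). The furthest were the cystine exporter gene Ctns (2.73, SE 0.39), Lamp2, a main glycoprotein of the membrane (1.72, SE 0.40), the sialic acid exporter gene Slc17a5 (−1.71, SE 0.35) and Cln3, mutated in Batten disease (−1.16, SE 0.41).

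Of the 17 V-ATPase subunits 4 were called higher and 5 lower (median −0.13). The 4 furthest apart were all lower on cDNA: Atp6v1h (−2.59, SE 0.21), Atp6v0e2 (−1.44, SE 0.20), Atp6v1b2 (−1.36, SE 0.18) and Atp6v1a (−1.31, SE 0.18). Of the 23 sorting and transcription factors 7 were called higher and 6 lower (median −0.14), the furthest being the TFEB relatives Tfe3 (3.38, SE 0.26) and Mitf (1.85, SE 0.30), Gnptg, a subunit of the enzyme that starts the mannose 6-phosphate tag (2.56, SE 0.35), and Lamtor2, of the Ragulator complex (−1.90, SE 0.23).

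Among the 5 other cathepsins and relatives, 1 was called higher and 2 lower (median −1.06). Lgmn, the asparaginyl endopeptidase that processes cathepsin proenzymes, read 11.07 and 11.16 on cDNA arrays 1 and 0, against 15.08 and 15.11 on aRNA arrays 1 and 0. Its difference was −3.98 (SE 0.23, limma adjusted p = 1.37e-05), and its arrays split by preparation only, since the numbers differed by −0.09 on cDNA and −0.04 on aRNA. Tinagl1, a secreted relative without protease activity, gave 2.74 (SE 0.70) and Ctso −1.06 (SE 0.28). Of 17 genes measured on that list, 7 were under background on every array, most of them cathepsins of the placenta. Of the 7 further inhibitors 2 were called higher and 2 lower (median −0.08): Ctla2a (1.39, SE 0.48) and Cst6 (1.36, SE 0.42) were higher on cDNA, and the intracellular serpins Serpinb6a (−1.69, SE 0.19) and Serpinb1a (−1.58, SE 0.39) lower.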

How the data were processed

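Per the labels, 4 arrays carried target from mouse total RNA, 2 as cDNA and 2 as aRNA. Each deposited value is the linear intensity of a probe set; the sources used here do not name the software behind it. Values were kept as scaled by the authors (equal 2% trimmed mean) and taken as log2(intensity + 16), on which folds of dim probe sets are understated. The 64 control probe sets were left out, and the 22519 of 45037 others with a mean at or above the median were tested. Symbols came from the platform annotation (1 symbol for 34945 probe sets), updated by gene identifier for 34741 of them in a RefSeq table (GRCm38.p6).

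limma 3.58.1 in R 4.3.3 (eBayes with trend, Benjamini-Hochberg over all probe sets tested, threshold 0.05) compared cDNA with aRNA (2 residual degrees of freedom) and, in an additive model with preparation, the numbers (1 degree). It was tested on simulated data with independent noise and changes larger than those called for the members. That run therefore says nothing on calls of the size found for the members. With 2 arrays against 2, no exact permutation test can go below p = 0.333, so none was run. The number of arrays limits the precision. The members and gene lists were chosen with earlier results of these data known. All probe sets of the 10 genes are named, and from each other list up to 4 called genes with the largest difference. For likeness, 5 genes were named. Python 3.11.15 and matplotlib 3.10.9 drew the figures. Alternatives changed pseudocount, scaling, filter, floor, trend and arrays.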

Additional observations from a re-analysis of the deposited data

Results flagged for a closer look

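At 6 of the 21 probe sets the difference of number 1 minus number 0 had opposite signs in the 2 preparations. Each preparation has 1 array per number, so these differences between the preparations were not tested. At the pair bright enough for the tests, Ctsb 1448732_at gave 1.11 on cDNA and −0.08 on aRNA, and Ctsh 1443814_x_at gave −0.05 on cDNA and 0.85 on aRNA. The others were dim and lay under background on at least 1 array: Ctsa 1458466_at gave −1.41 on cDNA and 0.14 on aRNA, Ctsb 1444987_at gave −2.65 and 0.75, Ctsc 1437939_s_at gave −1.22 and 0.20, and Ctsc 1446834_at gave −1.03 and 1.46.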

How the results depend on the processing

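Between cDNA and aRNA, the calls of both Ctsh probe sets and of Ctsl 1451310_a_at held in every alternative in which they were tested. Of the 17 probe sets, 5 were called; leaving out 1 array gave 4 to 6, a filter at the 75th percentile 3 (13 members tested) and leaving out _x_at and _s_at probe sets 3 (14 tested). The count at least 2-fold apart, varied after seeing the data, was 5; it was 8 without the filter, 2 with the 75th percentile filter, 3 without _x_at and _s_at, and 6 to 8 with 1 array left out. The number as a replicate block gave 6 calls, adding Ctsd (−0.55, limma adjusted p = 0.0201). The labels do not say that a number marks shared RNA. The 2 arrays numbered 0 differed in Xist (11.94 on cDNA and 8.55 on aRNA at 1436936_s_at) and Eif2s3y (7.92 and 13.12 at 1417210_at). The differences between the numbers correlated at 0.041 between the preparations over the probe sets tested. Centring each array on its median made Ctsd pass (−0.70, adjusted p = 0.0478 in limma) and moved the median over all probe sets from −0.11 to −0.25 and the higher share of calls from 46.9% to 39.5%. Cst3 lost its call with that centring, without the filter and without the trend. Differences near 0 changed sign: with median centring Ctsb 1417492_at gave −0.11 and Ctss −0.14; with 1 array left out Ctsb 1417490_at lay between −0.38 and 0.00, 1417492_at between −0.10 and 0.17, 1417491_at between −0.44 and 0.11, Ctsc 1416382_at between −0.88 and 1.21, Ctss between −0.97 and 0.99, Ctsz 1417868_a_at between −1.16 and 0.34 and Cst7 between −1.67 and 2.85. Between the numbers, 14 of all probe sets were called; 7 with pseudocount 64, 8 with median centring, 58 with quantile normalization, 28 without the filter, 24 with values raised to background, 0 without the trend and 7 without _x_at and _s_at. The causes of these changes were not tested.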
